A study of Homo sapiens with 3 samples.

Results

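The phase I enzymes examined here are 54 genes whose products oxidise, reduce or hydrolyse drugs, hormones, lipids and metabolic intermediates. They comprise 19 aldehyde dehydrogenases (ALDH), 14 cytochromes P450 of families CYP1, CYP2 and CYP3, 6 alcohol dehydrogenases (ADH), 4 aldo-keto reductases (AKR), 4 flavin monooxygenases (FMO), 2 monoamine oxidases (MAO), 1 aldehyde oxidase (AOX1), 2 carboxylesterases (CES) and 2 epoxide hydrolases (EPHX). The members were taken by gene symbol and matched to the Ensembl identifier of each row. Earlier results of these data were known when the list was chosen. All 54 were among the 27024 counted genes of each library.

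The study edited a prostate cancer risk enhancer in 22Rv1, an established human prostate carcinoma line, and compared its deletion and its risk allele with wild type by RNA-seq. The 3 libraries analysed here are replicates 1 to 3 of the WT group, which carries the intact enhancer and is homozygous for the non-risk G allele. Cells were grown in complete RPMI1640 medium with serum and antibiotics, and the labels name no further agent. Edited libraries were not analysed here, so no condition was compared. The study describes its unedited samples as control clones, from colonies grown out of single cells, in one place and as biological replicates in another, so an SD over n = 3 may cover the spread between clones or between cultures, and p-values measure only the spread between these samples, which may be technical.

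Phase I reactions expose or add a polar group, and the products often pass to conjugating enzymes. P450s take electrons from NADPH through cytochrome P450 reductase, FMOs use a bound flavin, and AOX1 uses a molybdenum cofactor. ALDH and ADH enzymes pass hydrides to NAD or NADP, whereas esterases and epoxide hydrolases need only water. Many P450 and ADH genes are best known from the liver, while several ALDHs are housekeeping enzymes of amino acid and lipid breakdown found in most tissues.

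Levels are the authors' normalized counts, namely reads divided by 1 size factor per library. A gene was called expressed at 1 CPM (reads scaled to library size, here by TMM) or more in all 3 libraries. Depth after merging of repeated rows ran from 35675670 to 38629080 reads. Of the 54 members, 31 were expressed (57.4%), 16 held reads below that level and 7 had no read in any library, while 47.7% of all counted genes were expressed. The 16 low members reached at most 41 reads in a library. A count of 0 allows up to 3 reads, which correspond to 2.37, 2.54 and 2.36 normalized counts in replicates 1, 2 and 3, and such floors cover counting error only because the reads carry no molecular identifiers. In bulk RNA, fewer cells carrying a transcript and less transcript per cell cannot be told apart.

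The labelled cell type was checked against marker genes. All 7 prostate luminal carcinoma markers were expressed, among them the prostate homeobox factor HOXB13 at 9956 ± 200 normalized counts (SD, n = 3). Of 7 hepatocyte markers, only ALB (albumin) was expressed, at 10911.6, 10088.1 and 10764.3 normalized counts. The others held few reads in replicates 1, 2 and 3, with 23, 37 and 39 for TTR, 15, 13 and 19 for TF and 1, 12 and 28 for APOA1. FGB had 2, 4 and 5 reads, APOB had at most 1 read in a library, and SERPINA1 was at 0 in all 3 libraries. The summed hepatocyte list ran from 10145 to 10944 normalized counts over the libraries and was nearly all ALB. None of 5 leukocyte markers and neither measured endothelial marker was expressed, with summed levels of at most 49.6 and 1.6 normalized counts. Of 5 fibroblast markers, COL1A1 (261 ± 17.2) and LUM (161 ± 18.3) were expressed, and the list summed to between 430 and 488. The part of these markers in the enzyme levels was not tested.

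Promoter windows show how differently the members are built at their start sites. RefSeq windows of 300 bases (250 before the start site, 50 after it, GRCh38.p14) were found for 43 of the 54 members. ADH5 and ADH4, neighbours in the ADH cluster, are shown as a highly expressed member and a member at 0. AKR1B1 is shown as a member at 0 with a CpG-rich window, and CYP1A2 as an expressed member with a CpG-poor one. Each is printed 5′ to 3′ on the gene's strand, and capitals mark every CG dinucleotide. The windows are chr4:99088739-99089038 on the minus strand for ADH5, chr4:99144248-99144547 on the minus strand for ADH4, chr7:134459051-134459350 on the minus strand for AKR1B1 and chr15:74748595-74748894 on the plus strand for CYP1A2.
ADH5: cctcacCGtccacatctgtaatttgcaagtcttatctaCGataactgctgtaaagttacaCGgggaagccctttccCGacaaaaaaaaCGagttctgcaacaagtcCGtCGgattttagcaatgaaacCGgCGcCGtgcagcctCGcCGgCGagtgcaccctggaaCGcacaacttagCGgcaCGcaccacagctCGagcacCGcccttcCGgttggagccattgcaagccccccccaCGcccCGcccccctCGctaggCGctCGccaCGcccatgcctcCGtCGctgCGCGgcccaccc
ADH4: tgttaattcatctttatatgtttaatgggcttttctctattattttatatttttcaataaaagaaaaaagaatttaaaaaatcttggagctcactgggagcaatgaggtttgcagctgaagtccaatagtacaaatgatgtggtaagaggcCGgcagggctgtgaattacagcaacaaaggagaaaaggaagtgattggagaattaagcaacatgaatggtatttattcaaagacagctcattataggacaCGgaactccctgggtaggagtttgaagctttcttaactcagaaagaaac
AKR1B1: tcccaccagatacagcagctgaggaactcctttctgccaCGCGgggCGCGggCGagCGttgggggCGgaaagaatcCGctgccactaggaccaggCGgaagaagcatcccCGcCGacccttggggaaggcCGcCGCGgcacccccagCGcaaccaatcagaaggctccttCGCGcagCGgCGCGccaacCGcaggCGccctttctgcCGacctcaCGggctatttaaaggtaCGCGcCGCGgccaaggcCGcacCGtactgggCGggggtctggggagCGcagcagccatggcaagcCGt
CYP1A2: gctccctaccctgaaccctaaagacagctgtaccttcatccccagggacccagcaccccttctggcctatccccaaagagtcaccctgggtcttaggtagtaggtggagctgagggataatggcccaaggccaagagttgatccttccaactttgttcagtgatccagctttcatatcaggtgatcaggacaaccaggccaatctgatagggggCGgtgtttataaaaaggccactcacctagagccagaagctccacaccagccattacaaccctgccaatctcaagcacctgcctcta

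The 4 windows hold 29, 2, 33 and 1 CG dinucleotides in the order printed. The windows were searched for CG, which reads the same on both strands, and for TATAAA on both strands. TATAAA was present in the ADH4 and CYP1A2 windows and absent from the ADH5 and AKR1B1 windows. In ADH4 it lay only on the strand opposite the printed one, toward the upstream end of the window. In CYP1A2 it lay on the printed strand, nearer the start site. Over the 24 expressed members with a window, the median was 24.5 CG per window (range 1 to 40), and 75.0% held at least 15. Over the 19 members not expressed, the median was 3 (range 0 to 46), and 31.6% held at least 15. Among all counted genes with a window, 89.3% of 10339 expressed genes and 34.2% of 6968 genes not expressed held at least 15, so the same direction was present genome-wide. TATAAA lay in 3 of the 24 expressed members (12.5%) and in 6 of the 19 others (31.6%), against 4.51% of expressed genes, 16.6% of genes not expressed and 11.5% of all 27305 genes with a window. This direction, too, was present genome-wide. These matches are descriptions of the letters in each window.

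**Figure D1:**
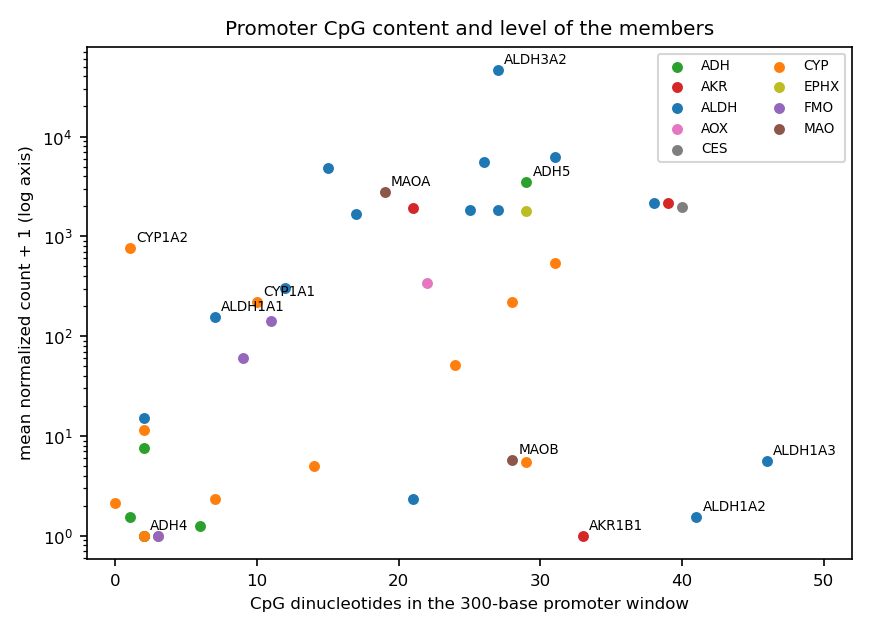
Number of CG dinucleotides in the 300-base promoter window (x axis) against the mean deposited normalized count plus 1 over 3 WT libraries (y axis, log), with 1 point per member that has a window, coloured by enzyme class. AKR1B1, ALDH1A2 and ALDH1A3 combine 33, 41 and 46 CG with levels near 0, whereas CYP1A2 has 1 CG and a mean of 759 normalized counts.

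Of the members not expressed, 6 held at least 15 CG, namely ALDH1A3 (46), ALDH1A2 (41), AKR1B1 (33), CYP2S1 (29), MAOB (28) and ALDH1L1 (21). For each gene with several windows, the window with the most CG was used.

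**Figure D2:**
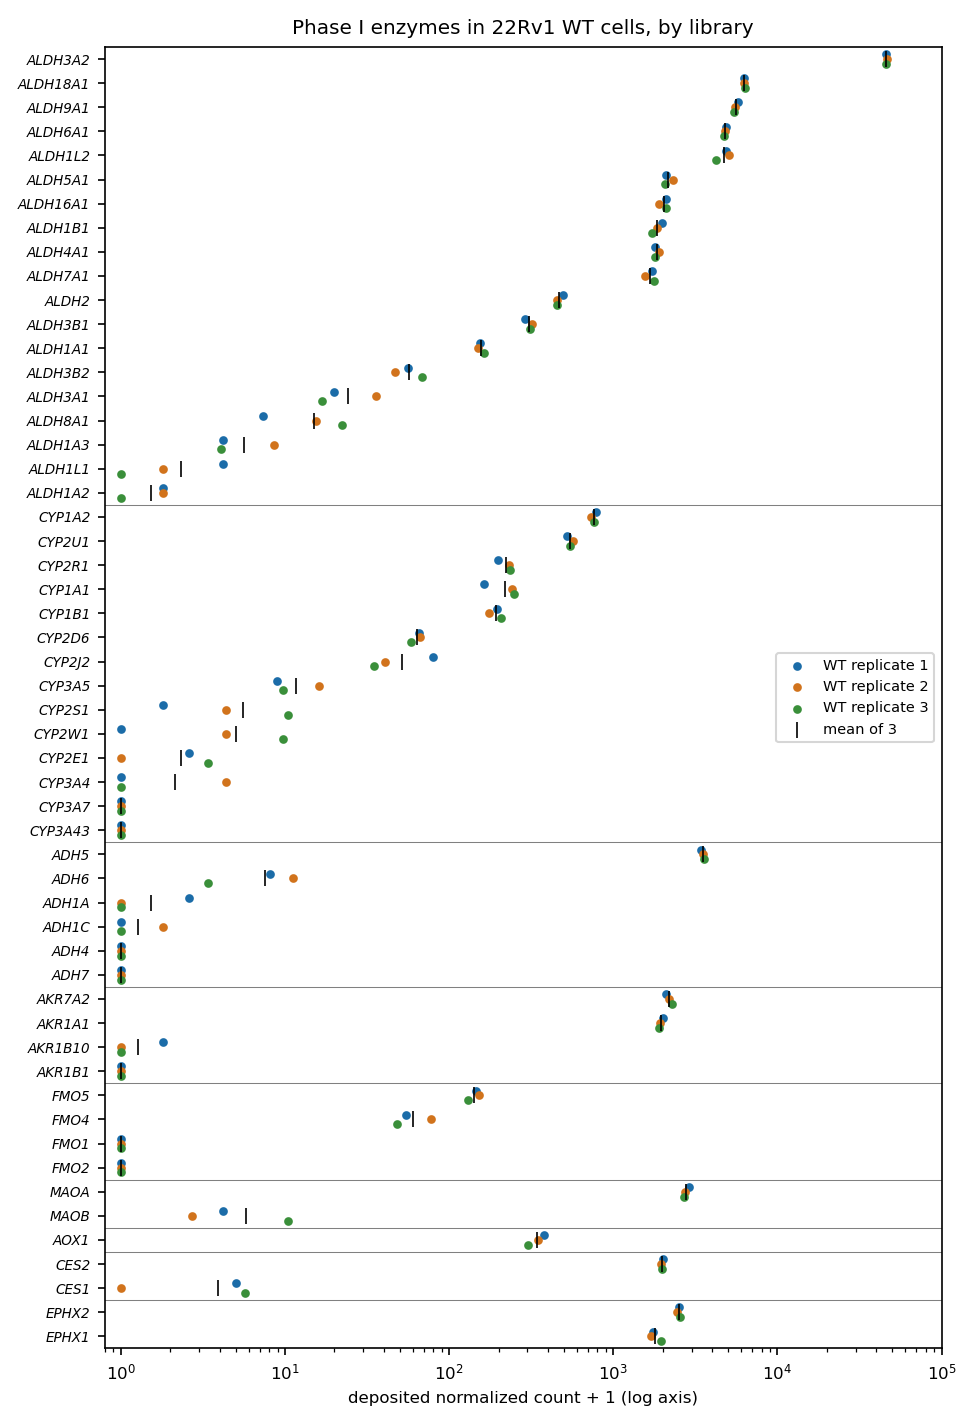
Deposited normalized count plus 1 (x axis, log) of all 54 members (rows, grouped by enzyme class) in WT replicates 1, 2 and 3 (coloured points), with the mean of 3 as a vertical bar. ALDH3A2 stands at the far right near 46066 normalized counts, each class apart from AOX and EPHX holds at least 1 member near or at 0, and points of 1 gene lie close together except at low levels.

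The ALDH family carried most of the transcript measured over the 54 members. Other phase I enzymes, listed further below, are outside this sum. Genes were compared per kilobase of canonical transcript, since counts rise with length, and on that scale the 19 ALDH genes held 71.2% ± 0.424 (SD, n = 3) of the summed level of all 54 members. All 19 had at least 1 read and 14 were expressed. ALDH3A2, the microsomal fatty aldehyde dehydrogenase that oxidises long-chain lipid aldehydes, had 45618.2, 46547.9 and 46033.1 normalized counts in replicates 1 to 3. The 3 libraries thus lay close together, and no other member came near that level. Per kilobase it reached 12440 ± 126 normalized counts, above 99.0% of expressed genes, and alone made up 42.1% ± 0.390 of the summed level per kilobase. These values depend on the length used. The level of ALDH3A2 per kilobase was 9061 with the longest transcript. With merged exons it was 3005, against 1847 for ALDH9A1. With ALDH3A2 set aside, the other ALDH genes still held 50.2% ± 0.697 of the remainder. The gene (GRCh37 chr17:19551449-19589073, plus strand, 10 exons in the canonical transcript) overlaps SLC47A2, and whether the counting used strand is not given in the sources used here.

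The next ALDH genes serve amino acid and carnitine metabolism. ALDH18A1, which makes the proline precursor pyrroline-5-carboxylate, had 6285.0, 6248.7 and 6326.5 normalized counts, the tightest agreement between libraries of any expressed member (coefficient of variation 0.619%). ALDH9A1, an enzyme of carnitine synthesis, had 5708.2, 5521.8 and 5432.1 normalized counts. ALDH6A1, which acts in valine breakdown, had 4824.1, 4770.3 and 4752.7 normalized counts. Per kilobase their order was ALDH9A1 (2319 ± 58.8), ALDH18A1 (1876 ± 11.6) and ALDH6A1 (876 ± 6.81), and their ranges over the libraries did not overlap.

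ALDH1L2, the mitochondrial formyltetrahydrofolate dehydrogenase of folate metabolism, had 4883.4, 5045.3 and 4219.0 normalized counts. Replicate 3 was the low library for this gene. ALDH5A1, the succinic semialdehyde dehydrogenase of GABA breakdown, had 2094.5, 2306.0 and 2052.4, with replicate 2 high. ALDH16A1, a family member thought to lack the catalytic cysteine in mammals, had 2102.4, 1886.3 and 2097.3, with replicate 2 low.

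ALDH1B1, a mitochondrial enzyme for short aldehydes, had 1990.2, 1856.7 and 1717.8 normalized counts. ALDH4A1, of proline breakdown, had 1799.0, 1899.0 and 1803.6 normalized counts. ALDH7A1, of lysine breakdown, had 1713.6, 1550.3 and 1765.1 normalized counts. These mid-level genes lay between 352 ± 23.5 (ALDH7A1) and 655 ± 39.8 (ALDH16A1) normalized counts per kilobase, and ALDH16A1, ALDH1L2, ALDH1B1 and ALDH4A1, which follow each other in that order, each overlapped the next in range.

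ALDH2, the mitochondrial enzyme that clears acetaldehyde, was among the lower expressed members per kilobase. It had 493.0, 451.9 and 451.1 normalized counts, and 48.7 ± 2.51 per kilobase, above 13.1% of expressed genes. Its canonical transcript is long at 9561 bases, which lowers the value per kilobase. The lipid aldehyde enzyme ALDH3B1 had 289.2, 317.3 and 308.6 normalized counts, and its relative ALDH3B2 had 55.3, 45.7 and 66.9.

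The retinaldehyde dehydrogenases, which make retinoic acid, were low as a group. ALDH1A1, also widely used as a stem cell marker, had 154.1, 148.9 and 163.0 normalized counts. ALDH1A3 had 4, 9 and 4 reads, and ALDH1A2 had 1, 1 and 0 reads. Another 3 ALDH genes were below the expression level, with 24, 41 and 20 reads for ALDH3A1, 8, 17 and 27 reads for ALDH8A1 of the kynurenine pathway, and 4, 1 and 0 reads for ALDH1L1, the cytosolic counterpart of ALDH1L2. Only ALDH1A1 of the retinaldehyde enzymes passed the expression level.

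**Figure D3:**
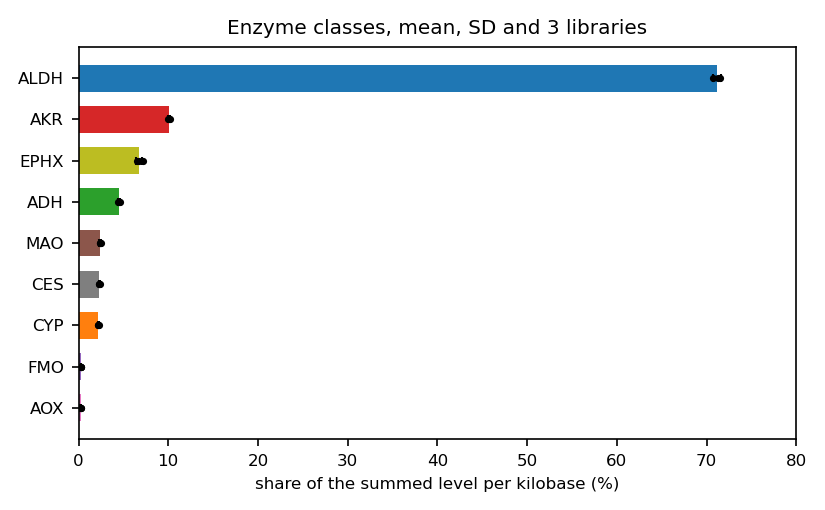
Share of each enzyme class in the summed level per kilobase of the 54 members (x axis, percent; classes on the y axis), with bars at the mean, error bars of 1 SD and points for the 3 WT libraries. ALDH holds 71.2%, AKR 10.1% and EPHX 6.78%, and the CYP, FMO and AOX classes lie at or below 2.21%.

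Among the other classes, AKR held 10.1% ± 0.0746 of the summed level per kilobase, EPHX 6.78% ± 0.326, ADH 4.48% ± 0.107, MAO 2.39% ± 0.0768, CES 2.34% ± 0.0386, CYP 2.21% ± 0.0421, FMO 0.292% ± 0.0375 and AOX1 0.235% ± 0.0273. Shares within a library sum to a whole, so a large member lowers the share of all others. The ALDH share depended on the length used, at 65.8% with merged exons and 80.2% without any division by length.

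Of the 14 CYP genes, 7 were expressed and 2, CYP3A7 and CYP3A43, had no read. CYP3A7 overlaps the readthrough gene CYP3A7-CYP3A51P, which has its own row and matches 81.9% of the CYP3A7 transcript at 98.4% identity, so its 0 is uncertain. The highest per kilobase was CYP1A2, a drug and caffeine oxidase best known from liver, with 788.5, 728.6 and 758.9 normalized counts and 242 ± 9.56 per kilobase, above 42.7% of expressed genes. It lies at GRCh37 chr15:75041186-75048948 on the plus strand and overlaps no other annotated gene. CYP1A1, its neighbour 23.3 kb away and a classic target of the aryl hydrocarbon receptor, had 162.8, 242.0 and 248.0 normalized counts. Replicate 1 was therefore low for CYP1A1, while CYP1A2 was similar in all 3 libraries. CYP1B1, the third gene of the CYP1 family, had 195.1, 174.3 and 205.5 normalized counts, and it overlaps RMDN2 and CYP1B1-AS1, whose reads cannot be told apart from its own if strand was not used.

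The remaining expressed P450s were modest. CYP2U1, a fatty acid hydroxylase, had 523.8, 567.8 and 541.6 normalized counts. CYP2R1, the vitamin D hydroxylase of the first activation step, had 197.5, 229.3 and 233.0 normalized counts. CYP2J2, an arachidonic acid epoxygenase, had 79.0, 39.8 and 33.9 normalized counts, so replicate 1 held the high value. CYP2D6, which handles many antidepressants and opioids, had 64.8, 65.2 and 57.5, but its transcript matches the CYP2D7 transcript over 99.9% of its length at 96.7% identity, so its level is uncertain. The 5 others with reads were CYP3A5 (10, 18 and 11 reads), CYP2S1 (1, 4 and 12), CYP2W1 (0, 4 and 11), CYP2E1 (2, 0 and 3) and CYP3A4 (0, 4 and 0). The main liver drug oxidase CYP3A4 was thus at or near the floor in every library.

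ADH5 was the single expressed alcohol dehydrogenase. ADH5 encodes the ubiquitous enzyme that oxidises the glutathione adduct of formaldehyde and reduces S-nitrosoglutathione, and it had 3416.2, 3509.4 and 3590.7 normalized counts, or 1322 ± 32.9 per kilobase. The other 5 members in the same 365 kb cluster on GRCh37 chromosome 4 had 9, 12 and 3 reads for ADH6, 2, 0 and 0 for ADH1A, 0, 1 and 0 for ADH1C, and none for ADH4 and ADH7. ADH1A and ADH1C match over 100% of the ADH1A transcript at 93.5% identity, and ADH5 matches the pseudogene ADH5P4 over 41.7% of its length at 97.3%. The transcripts of ADH1A and ADH1C also match ADH1B over 100% of their length, at 93.7% and 94.4% identity. ADH1B is not a member, and with 34, 31 and 46 reads it was below the expression level. Against a floor of 3 reads over the 3 libraries, ADH5 was at least 3279-fold higher per kilobase than ADH4, which lies 34.9 kb away, and at least 3471-fold higher than ADH7. The printed ADH5 and ADH4 windows belong to this pair.

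Both general aldehyde reductases were expressed and aldose reductase was not detected. AKR7A2, which reduces succinic semialdehyde and aflatoxin dialdehyde, had 2101.6, 2176.6 and 2262.6 normalized counts. AKR1A1, the general aldehyde reductase, had 2017.8, 1919.3 and 1885.5 normalized counts. Per kilobase they reached 1603 ± 59.2 and 1379 ± 48.9. AKR1B1, aldose reductase of the polyol pathway (GRCh37 chr7:134127108-134144036, minus strand), had no read in any library, and AKR1B10 had 1, 0 and 0 reads. Against the same floor of 3 reads, AKR1A1 was at least 2327-fold and AKR7A2 at least 2704-fold higher per kilobase than AKR1B1. AKR7A2 matches AKR7A3 over 75.2% of its transcript at 92.0% identity and AKR7L over 75.0% at 92.7%. AKR7A3 is not a member and was expressed, with 280, 201 and 291 reads. AKR1B1 matches the pseudogene AKR1B1P7 over 70.0% of its transcript at 92.3% identity. How reads with several mapping places were counted is not given in the sources used here.

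In the oxidase classes, MAOA, which degrades serotonin and noradrenaline, had 2871.1, 2721.5 and 2709.0 normalized counts, or 704 ± 22.9 per kilobase. MAOB, which prefers phenylethylamine and lies 19.8 kb from MAOA on the X chromosome, had 4, 2 and 12 reads. AOX1, a molybdenum enzyme that oxidises aza-heterocyclic drugs, had 379.2, 346.1 and 299.9 normalized counts, with replicate 3 low. FMO5 had 143.8, 151.5 and 129.1 normalized counts and FMO4 had 53.7, 76.2 and 47.2. FMO1 and FMO2 had no read in any library, although FMO4 lies in the same 157 kb cluster on chromosome 1. FMO5 was at least 162-fold higher per kilobase than FMO1 and at least 392-fold higher than FMO2 against the floor of 3 reads. FMO5 overlaps CHD1L, which has its own row, so its level is uncertain if strand was not used.

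At least 1 member of each hydrolase class was expressed. CES2, which activates irinotecan, had 2013.1, 1958.2 and 1968.2 normalized counts, and CES1, the main liver carboxylesterase, had 5, 0 and 6 reads. The CES1 transcript matches CES1P1 over 87.7% of its length at 96.2% identity, so the CES1 level is uncertain. EPHX1, the microsomal hydrolase of xenobiotic epoxides, had 1749.2, 1706.0 and 1955.6 normalized counts. EPHX2, the soluble hydrolase of fatty acid epoxides, had 2514.8, 2454.1 and 2539.7 normalized counts. Replicate 3 was the high library for EPHX1, and CES2 and EPHX2 were even across the libraries. Because EPHX1 has the shorter transcript, the order turned per kilobase, at 1103 ± 81.6 for EPHX1 and 902 ± 15.9 for EPHX2.

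In the order of all 31 expressed members per kilobase, ALDH3A2 came first, followed by ALDH9A1, ALDH18A1, AKR7A2, AKR1A1, ADH5, EPHX1, EPHX2, ALDH6A1 and MAOA. AKR1A1 and ADH5 were not separated, nor were MAOA and CES2, because their ranges over the libraries overlapped. Such ranges do not cover the choice of length. With merged exons ALDH6A1 (716) lay above EPHX2 (598) and EPHX1 (728) above ADH5 (720), while MAOA (213) lay below CES2 (371). The lower end held CYP2D6, CYP1B1, CYP2J2, FMO4 and ALDH3B2, each of which overlapped the next in range, while CYP2D6 lay below ALDH2 in all libraries. Of the 30 neighbouring pairs in the order, 15 overlapped. The median level of expressed members was 419 normalized counts per kilobase, against 315 for all expressed genes, and 17 of the 31 lay above the latter. Of the 31, 10 overlap a gene with its own row, namely ALDH1L2, ALDH3A2, ALDH4A1, ALDH5A1, ALDH6A1, ALDH16A1, CYP1B1, CYP2D6, FMO5 and EPHX1, and their levels are uncertain if the counting did not use strand.

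**Figure D4:**
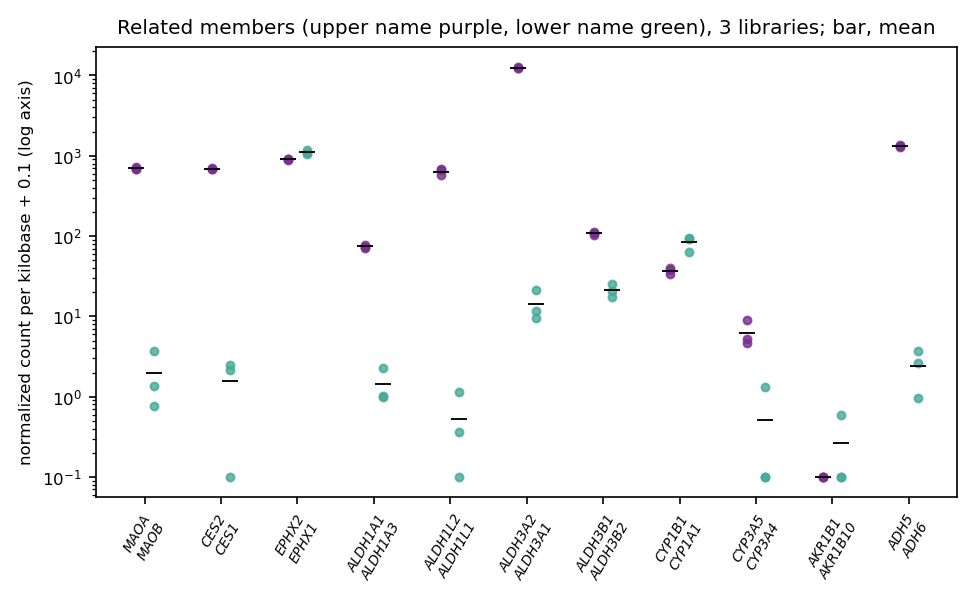
Normalized count per kilobase plus 0.1 (y axis, log) of both members of 11 related pairs (x axis) in the 3 WT libraries (points) with their mean (bar), and with the upper-named gene in purple and the lower-named gene in green. MAOA, CES2, ADH5, ALDH1L2 and ALDH3A2 stand more than 100-fold above their partners, whereas the EPHX pair lies close together.

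Paired relatives differed by large factors. Ratios below are per kilobase and, where a partner had few reads, come from reads summed over the 3 libraries with a 95% exact interval that covers counting error. MAOA exceeded MAOB 374-fold (236 to 631, 10291 against 18 reads), and the factor was 746 without replicate 3, which held 12 of the 18 MAOB reads. CES2 exceeded CES1 454-fold (253 to 909), and the factor ranged from 311 to 659 when single libraries were left out. That interval does not cover the uncertainty of the CES1 level from its match to CES1P1. ADH5 exceeded ADH6 574-fold (385 to 896). ALDH1L2 exceeded ALDH1L1 1444-fold (619 to 4447, 17502 against 5 reads), and the factor was 4670 without replicate 1, which held 4 of the 5 ALDH1L1 reads.

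ALDH3A2 was 1063, 594 and 1298 times ALDH3A1 in replicates 1, 2 and 3. ALDH1A1 was 79.7, 32.4 and 87.0 times ALDH1A3, with replicate 2 again the lowest. ALDH3B1 was 5.28 ± 1.14 times ALDH3B2. CYP1B1 was 0.457 ± 0.125 times CYP1A1, and EPHX2 was 0.820 ± 0.0474 times EPHX1. CYP3A5 exceeded CYP3A4 15.8-fold (5.69 to 60.7), on 39 against 4 reads, and without replicate 2 no CYP3A4 read was left. One order held in all 3 libraries for 10 of the 11 pairs, the exception being AKR1B1 and AKR1B10, with 0 and 1 reads. Of the ratios, 6 moved outside the 95% interval from summed reads when lengths were taken from merged exons. They became 127 for MAOA and MAOB, 5056 for ALDH1L2 and ALDH1L1, and 510 for ALDH3A2 and ALDH3A1. The others became 2.95 for ALDH3B1 and ALDH3B2, 0.494 for CYP1B1 and CYP1A1, and 3.30 for CYP3A5 and CYP3A4. For CYP1B1 and CYP1A1, 0.494 left the interval of 0.399 to 0.489 but lay within the spread between libraries.

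The spread between the WT libraries was then tested on the recovered reads, since no other contrast was available. A chi-square test of homogeneity against TMM library sizes, Benjamini-Hochberg adjusted over every gene averaging 10 reads or more, called 15 of 34 members tested (44.1%), against a background of 41.9% of 14646 genes. The members thus varied about as often as all genes did, and this share is no result about them. Scaled by genes of similar read count, the chi-square test called 0 members (background 0.389%), with 3 at an unadjusted p under 0.05. With the trended dispersion of edgeR added, 0 members were called (background 0.416%), with 3 at an unadjusted p under 0.05. The median coefficient of variation was 5.15% over the 31 expressed members and 4.88% over all expressed genes.

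Among the 15 called, ALDH1L2 had the smallest adjusted p (9.26e-22, chi-square test), which was 0.179 without replicate 3. CYP2J2 (adjusted p = 4.94e-06) had 100, 47 and 43 reads, a 2.33-fold range in normalized counts, and its adjusted p was 0.603 without replicate 1. CYP1A1 (adjusted p = 2.68e-05) had 206, 286 and 315 reads, a 1.52-fold range, and its adjusted p was 0.882 without replicate 1. Replicate 1 was thus the outlying library for both P450s, in opposite directions. The others were ALDH1B1, ALDH3A1, ALDH3A2, ALDH5A1, ALDH7A1, ALDH8A1, ALDH9A1, ALDH16A1, FMO4, MAOA, AOX1 and EPHX1. For ALDH3A2 the call (adjusted p = 0.0065) rested on depth, since its 3 values had a coefficient of variation of 1.01%, and it was lost without replicate 2 (adjusted p = 0.369). Each of the 15 calls was lost on leaving out at least 1 particular library, but not necessarily any library. The call of EPHX1, for instance, held without replicate 1 or 2 (adjusted p = 0.00014 and 0.0020, chi-square test) and was lost without replicate 3. With 3 libraries a call can rest on 1 deviating library, so losing it without that library says little about the gene.

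**Figure D5:**
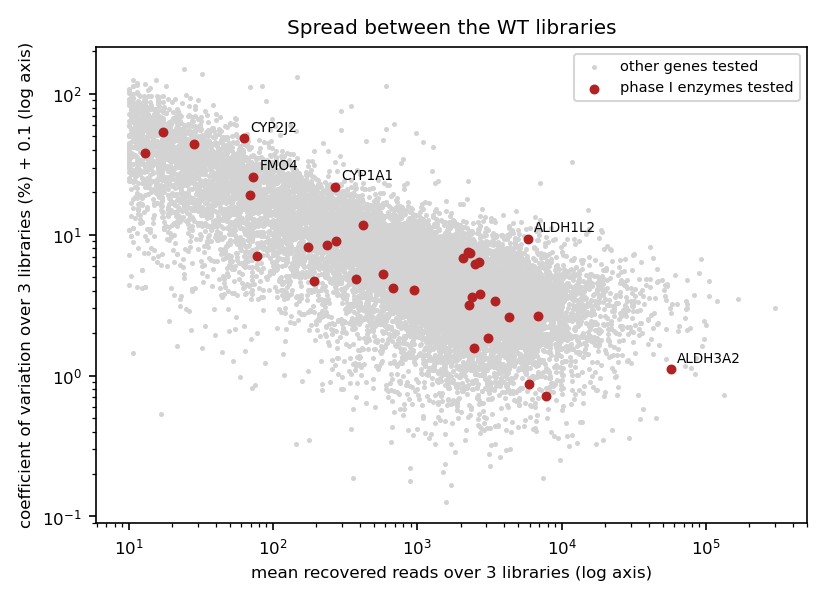
Coefficient of variation over the 3 WT libraries in percent plus 0.1 (y axis, log) against mean recovered reads (x axis, log) for the 14646 genes tested, with the 34 tested members in red. The members lie within the cloud of other genes, with CYP2J2, CYP1A1 and ALDH1L2 near its upper side.

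The wider pathway was read from lists of related genes. Of 51 other phase I enzymes, 19 were expressed and 8 had no read. The highest per kilobase were ESD, an esterase of formaldehyde detoxification acting after ADH5, with 2568 ± 82.7 normalized counts per kilobase, PON2, an intracellular lactonase, with 1833 ± 41.8, and NQO2, a quinone reductase, with 1349 ± 17.3. Of this list, 8 of 23 genes tested were called in the chi-square test of spread between libraries, where 41.9% of all genes tested were called.

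All 17 redox partners and cofactor suppliers were expressed. The same chi-square test against sampling noise called 11 of the 17, beside 41.9% of all genes tested, and that test called 6141 genes in all where the models with added spread called 57 and 61. IDH1 (6470 ± 70.1 normalized counts per kilobase) and PGD (3050 ± 115) both generate NADPH, and PGRMC1 (2487 ± 79.6) binds heme and associates with P450s. POR, the reductase that every microsomal P450 depends on, had 2878.2, 2807.0 and 2878.2 normalized counts, or 1167 ± 16.8 per kilobase. POR was therefore higher per kilobase than each CYP member. The molybdenum cofactor genes that AOX1 relies on were present, with MOCOS at 163, MOCS1 at 134, MOCS2 at 365, MOCS3 at 116 and GPHN at 465 normalized counts per kilobase.

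Of 15 regulators with a row, 11 were expressed, 5 of 12 tested were called in that chi-square test (41.9% over all genes tested), and NR1I3 (the constitutive androstane receptor) and ONECUT1 had no read. The highest per kilobase was the pioneer factor FOXA1, at 3650 ± 60.5 normalized counts, followed by KEAP1 at 1191 and CEBPB at 785. AHR, the aryl hydrocarbon receptor that drives CYP1 genes, had 820.1, 962.2 and 828.2 normalized counts, with replicate 2 high. The hepatic factor HNF4A had 94.0, 63.5 and 71.6 normalized counts, with replicate 1 high. NR1I2, the pregnane X receptor that induces CYP3A genes, had 21, 7 and 13 reads.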

How the data were processed

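RNA-seq was measured in 3 libraries of 22Rv1 WT cells. Per the submitters' processing notes and the study's methods, the authors aligned paired reads to hg19 (GRCh37) in HISAT2, took gene-level counts from HTSeq and scaled these in DESeq2. What they deposited is therefore a signal for each gene, the count over the library's size factor, rounded. The annotation release, strandedness and treatment of reads mapping to several places are not given in the sources used here. Whole reads were recovered from the step of each library (size factors 1.27, 1.18 and 1.27), and 100% of values above 0 came out whole within 0.06 normalized counts. Neighbouring rows identical in all libraries were merged, which left 27024 genes from 29000 rows. In these merged blocks, CES1 shares its reads with 1 other identifier and CYP2D6 with 5. Depth was 38252744, 35675670 and 38629080 reads, and 3 libraries limit the precision of every SD.

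TMM sizes came from edgeR 4.0.16 (R 4.3.3), and tests from scipy 1.17.1, numpy 2.4.6 and pandas 2.3.3. The homogeneity test was tested on simulated data, where it recovered 184 of 200 genes changed by 2-fold among 14652 genes, with 10 false calls. The simulated reads carried sampling noise only. Those false calls therefore do not measure false calls in the libraries, whose reads spread beyond sampling noise. Symbols, positions and canonical transcript lengths came from GENCODE 44 lifted to GRCh37, and 86.3% of identifiers had a symbol. Transcript copies were searched with minimap2 2.31, promoters are RefSeq windows, and figures used matplotlib 3.10.9. Expressed members are given by library and the others by reads. From the other lists, the 3 highest genes per kilobase and named redox partners are given, and further regulators and marker genes were named after their values were seen. Some genes of the marker and regulator lists are not reported here. The members and lists were chosen with earlier results of these data known. Alternatives were other scalings (including DESeq2 1.42.0 size factors), count minimums, lengths, dispersion models and leaving out each replicate.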

Additional observations from a re-analysis of the deposited data

How the results depend on the processing

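The number of expressed members was 31 with the settings of the report and 25 to 32 under other CPM limits, scalings, unmerged rows or with a library left out. The median over all members stayed between 98.8 and 106 normalized counts. The median level per kilobase of expressed members fell from 419 to 352 with the longest transcript and to 242 with merged exons, and 9 of the 10 highest members stayed among the 10 highest under both lengths. The ALDH share of 71.2% became 65.8% with merged exons and 80.2% with no division by length. The calls of spread between libraries depended most on the error model. Against 6141 genes and 15 members in the chi-square test, the edgeR trended dispersion gave 61 genes and 0 members, and scaling by genes of similar count gave 57 genes and 0 members, since both models allow a spread beyond sampling noise. Leaving out 1 library gave 3332 to 3950 genes and 6 to 9 members, with fewer samples tested. Other count minimums, total-count scaling and DESeq2 size factors gave 5599 to 6676 genes and 13 to 19 members. The order within 10 of 11 pairs held under each alternative run. No paired analysis was possible because only 1 group was analysed. At this depth, members with under about 10 reads could not be ranked.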
